A study of Homo sapiens with 2 samples.

Results

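The untreated library of IMR-90, a line of human fibroblasts, held 13738 JUNB peaks that had no counterpart after etoposide and whose summits stood away from the ends of genes. A peak was taken when it lay on chromosomes 1 to 22 or X, shared no base with any peak of the etoposide-treated library, and had its summit more than 1 kb from both boundaries of every protein-coding gene. These untreated-only peaks were 42.2% (95% Wilson interval 41.7% to 42.7%) of the 32550 untreated peaks on those chromosomes, from a list of 33491. They were chosen by the absence of a peak in the other list, so their absence after etoposide is how they were selected and not a result. The study profiled JUNB by CUT&RUN with an antibody against the protein in 2 libraries. The untreated cells received no treatment, and the others received etoposide, which poisons topoisomerase II, breaks DNA and brings cultured fibroblasts into senescence. The labels give no dose or duration, and both libraries came from the same cell line. With 1 library per condition no spread between replicates could be measured, and every interval covers counting error only. Compared sets were 15763 shared untreated peaks and 8660 etoposide-only peaks, both away from gene boundaries by the same rule.

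JUNB is a basic leucine zipper protein of the JUN family. It pairs with a FOS or ATF protein to form AP-1, which binds a short, nearly symmetric DNA element, and in fibroblasts AP-1 is known mainly for its binding at enhancers inside and between genes. In CUT&RUN the antibody brings a nuclease to the protein, the nuclease cuts beside the bound site, and the released fragments are sequenced. A peak is a stretch where more fragments pile up than in the surroundings, and its summit is the base with the highest pile. The strength used below is the height of the pile at the summit, solved from the fold and p that the authors deposited. It is given as fragments, but the peak caller may build its pile from reads extended to a set length. A fragment here is then an extended read and not a sequenced fragment.

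Most of these peaks lay where no sequence was used here, but 155 of the 12999 with annotated starts on their chromosome had a summit in a window of 300 bp at an annotated RNA start, from 250 bp before to 50 bp after it. These are starts inside a gene or of long non-coding RNAs, since the outer ends of protein-coding genes were left out by the rule. The following RefSeq sequences (GRCh38.p14) are shown to let the reader see how the AP-1 element stands beside a JUNB summit. Each is read 5′ to 3′ on the strand of the annotated RNA and runs from the summit to the nearest element with 20 bases beyond each, or to the limit of the window. The RAB27B stretch was cut at the base before its annotated start. Capitals mark the element TGANTCA. The first 6 belong to the strongest such peaks by deposited q whose element lies before the start of a coding gene or at a non-coding one, and the seventh to a start inside FOXO3, a gene described further on.
FOCAD-AS1, chr9:20684752-20684945, minus strand: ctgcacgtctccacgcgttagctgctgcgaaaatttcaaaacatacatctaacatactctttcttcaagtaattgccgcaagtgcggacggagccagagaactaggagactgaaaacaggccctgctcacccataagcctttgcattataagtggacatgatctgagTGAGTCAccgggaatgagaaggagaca
LOC124906269, chr3:115790963-115791086, plus strand: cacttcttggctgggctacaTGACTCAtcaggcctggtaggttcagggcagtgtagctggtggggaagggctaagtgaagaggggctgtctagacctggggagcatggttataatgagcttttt
RAB27B, chr18:54828320-54828476, plus strand: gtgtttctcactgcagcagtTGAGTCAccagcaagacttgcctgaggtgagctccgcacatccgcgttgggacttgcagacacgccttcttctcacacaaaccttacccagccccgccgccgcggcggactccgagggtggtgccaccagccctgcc
TMEM127, chr2:96260597-96260782, minus strand: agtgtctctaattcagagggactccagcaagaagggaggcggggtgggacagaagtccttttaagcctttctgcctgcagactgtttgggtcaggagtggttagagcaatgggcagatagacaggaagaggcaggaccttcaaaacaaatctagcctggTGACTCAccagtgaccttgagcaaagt
LOC107986629, chr6:108738024-108738145, plus strand: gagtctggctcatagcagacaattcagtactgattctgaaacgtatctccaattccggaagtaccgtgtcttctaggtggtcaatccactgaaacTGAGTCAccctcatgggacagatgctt
LINC02843, chr9:88652179-88652407, minus strand: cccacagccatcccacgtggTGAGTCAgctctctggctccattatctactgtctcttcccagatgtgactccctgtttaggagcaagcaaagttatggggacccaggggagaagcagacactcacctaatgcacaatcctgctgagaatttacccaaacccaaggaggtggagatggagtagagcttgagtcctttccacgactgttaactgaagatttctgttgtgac
FOXO3, chr6:108588538-108588696, plus strand: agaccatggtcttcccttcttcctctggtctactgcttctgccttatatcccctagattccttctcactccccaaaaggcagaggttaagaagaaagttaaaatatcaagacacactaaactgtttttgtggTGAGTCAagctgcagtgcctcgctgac
The summits stood 150 bp from the centre of the element at FOCAD-AS1 (32 fragments), 80 bp at LOC124906269 (30), 125 bp at RAB27B (18), 142 bp at TMEM127 (16), 78 bp at LOC107986629 (25), 185 bp at LINC02843 (26) and 115 bp at FOXO3 (25). None of the 7 summits lay on the element itself. The strongest peaks of the same windows with no TGANTCA are shown for contrast, as up to 50 bases on each side of the summit.
NTRAS, chr1:211639795-211639857, plus strand: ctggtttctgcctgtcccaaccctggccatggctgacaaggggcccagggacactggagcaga
COX7A2L, chr2:42361327-42361427, minus strand: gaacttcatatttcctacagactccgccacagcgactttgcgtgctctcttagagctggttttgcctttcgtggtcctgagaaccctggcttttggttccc
LOC124902698, chr11:68338354-68338454, minus strand: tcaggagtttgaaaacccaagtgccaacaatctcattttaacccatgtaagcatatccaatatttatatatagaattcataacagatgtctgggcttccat
These carried 33 fragments at NTRAS, 22 at COX7A2L and 15 at LOC124902698. Of the 3, only the COX7A2L window held a GC box, GGGCGG, on either strand.

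The AP-1 element was present at some of these peaks and lay to the side of the summit. TGANTCA, searched on both strands like the other elements, occurred in 46 of the 155 windows, 29.7% (23% to 37.3%), and in 7.68% of all 34961 start windows, which cover chromosomes 1 to 22 and X except 8. Shared untreated peaks at such windows had it in 46.7% (37.4% to 56.2%) of 105, and etoposide-only peaks in 46.5% (32.5% to 61.1%) of 43. Untreated-only peaks within 1 kb of gene boundaries had it in 5.62% (4.07% to 7.71%) of 623. Median G and C was 58% in the 155 windows, 48.7% in the shared and 47% in the etoposide-only windows. In windows with over 60% G and C, 17.2% of 64 held the element where 3.30% of all such windows did. In the others the shares were 38.5% (29.1% to 48.7%) of 91 and 11.4%. There the shared set had 50.6% (40.3% to 60.8%) of 87 and the etoposide-only set 50% (34.5% to 65.5%) of 36. These 3 intervals overlapped. Over 60%, the shared set had 27.8% of 18 and the etoposide-only set 28.6% of 7. The narrower TGACTCA, which is contained in TGANTCA, was found in 24.5% (18.4% to 31.9%) of the 155 and in 4.92% of all windows. GC boxes were in 41.9% (34.5% to 49.8%) of the 155 windows, in 20% of the shared set, in 69.0% of the boundary set and in 45.0% of all windows. The CRE element TGACGTCA was in 4.52% (2.20% to 9.03%), against 1.85% of all windows. A match is a match of letters, and it does not show that the place was bound.

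Counted by distance over every base with a known sequence within 300 bp of a summit, the untreated-only peaks had 0.260 elements per kb at 0 to 49 bp, 1.03 at 50 to 99 bp, 1.42 at 100 to 149 bp, 2.40 at 150 to 199 bp, 1.65 at 200 to 249 bp and 0.770 at 250 to 300 bp. The level over all start windows was 0.290 per kb. The elements were thus sparse under the deposited summit and most frequent 150 to 199 bp away. Whether this offset belongs to the binding or to how the peak caller places a summit was not tested. The shared set had its highest density at the same distance, 6.29 per kb, and the etoposide-only set too, 4.12 per kb. These densities rest on 4 elements in the innermost step and 45 at 150 to 199 bp for the untreated-only peaks, and an element beside a pair of summits counts once for each. Among the 46 windows the element nearest to the summit was a median of 122.5 bp away (quartiles 79.3 and 181 bp), and 3 of the 46 were within 50 bp.

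**Figure D1:**
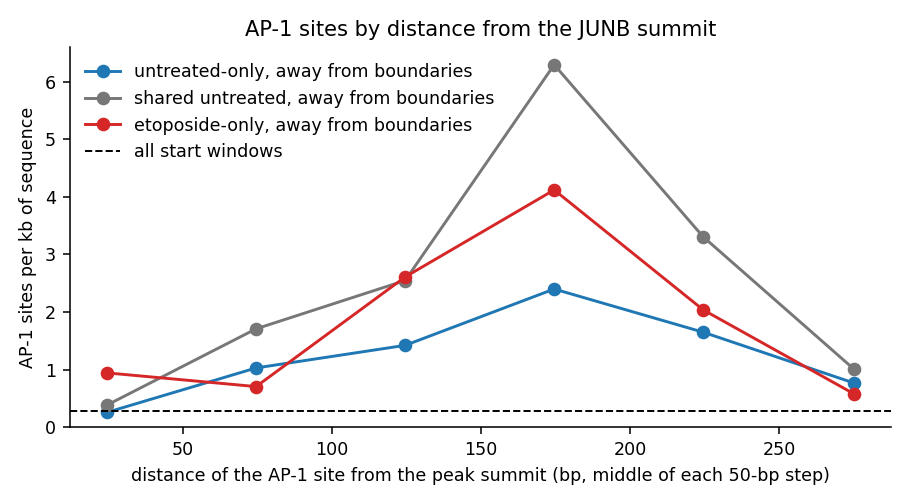
Number of TGANTCA elements per kb of known sequence (vertical axis) by distance from the JUNB summit in bp (horizontal axis, 6 steps), for untreated-only, shared untreated and etoposide-only peaks away from gene boundaries, with the level over all start windows as a dashed line. All 3 sets are highest at 150 to 199 bp, at 2.40, 6.29 and 4.12 per kb.

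Some of the peaks stood side by side. Of the untreated-only peaks 85.4% stood more than 250 bp from any other untreated peak, 8.10% (7.66% to 8.57%) stood in a group with a shared peak, and 6.45% (6.05% to 6.87%) in a group of untreated-only peaks. In the 1496 groups of exactly 2 peaks that held one of them, the summits were a median of 397 bp apart (quartiles 359 and 447 bp). This distance is bounded by the limit of 250 bp on the gap, by the smallest listed width of 202 bp and by the absence of gaps under 0.1 kb in the untreated list. FOXO3 had such a pair at 28.3 and 28.7 kb from its lower boundary, with 26 and 25 fragments, and its printed sequence belongs to the second of them. IKBKB had 3 in a row, with 13, 16 and 12 fragments at 21.1, 21.5 and 21.8 kb.

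Between the libraries the distance was measured as the gap from edge to edge. Most untreated-only peaks were far from etoposide peaks, at a median of 16.1 kb (quartiles 5.06 and 41.2 kb), and 8467 of them were over 10 kb away. A further 2121, 15.4% (14.8% to 16.1%), had an etoposide peak within 0.5 kb, and 1593, 11.6% (11.1% to 12.1%), had one at 75 to under 250 bp. The fullest step was 125 to 150 bp, with 399 peaks. Of the 2121, 1198 (56.5%) also had a shared untreated peak within 0.5 kb. These near peaks had a median of 15 fragments, the ones over 10 kb away 11. Of these gaps, 486 were of 100 bp or less, and the untreated list had none of its own under 0.1 kb. The closest neighbours, where the untreated-only peak ended on the base before an etoposide peak began or the reverse, were in RNF152 (10 fragments), in SLIT2 (8) and 321 kb from KLF4 (9). The last of these genes encodes a Krüppel-like transcription factor. For 15.4% of the set an etoposide peak was thus listed a short way off. The etoposide-only peaks were spaced much alike from the untreated list. At least 10 kb from the other list were 61.6% of untreated-only and 59.7% of etoposide-only peaks.

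**Figure D2:**
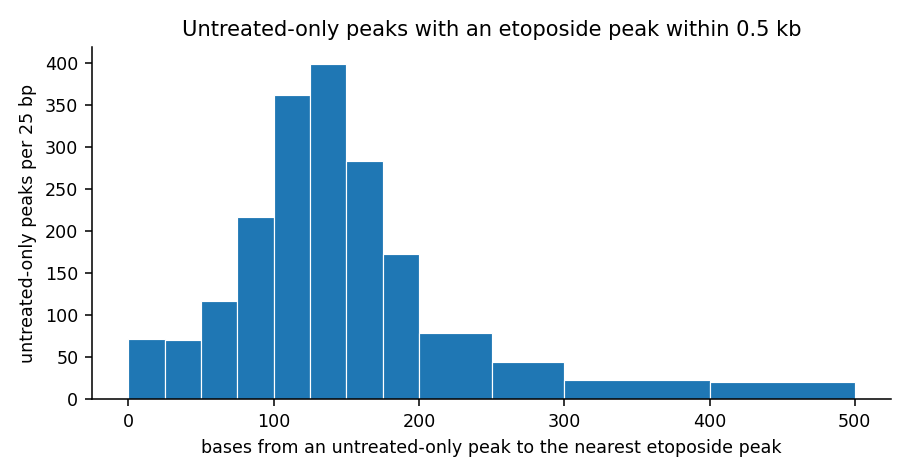
Untreated-only peaks per 25 bp (vertical axis) by the number of bases to the nearest etoposide peak (horizontal axis), for the 2121 peaks with one within 0.5 kb; steps wider than 25 bp are scaled to that width. The highest bar is at 125 to 150 bp, with 399 peaks.

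The set was made of weak to middling peaks. Summits held a median of 12 fragments (quartiles 10 and 16, range 5 to 53) on a median local background of 1.07, against 19 (14 and 27, up to 252) on 1.54 for shared peaks and 10 (8 and 13) on 0.699 for etoposide-only peaks. Peaks were a median of 234 bp wide, shared ones 358 bp and etoposide-only ones 211 bp. The median of the authors' -log10 q was 6.99, in the shared set 11.3. There were 1834 untreated-only peaks (13.3%) with 20 or more fragments, 206 with 30 or more, and 3340 (24.3%) with fewer than 10. Among all untreated peaks away from boundaries the share with no counterpart was lower at each step of strength, from 83.3% at 5 to 7 fragments through 51% at 14 or 15 and 31.2% at 20 to 24 to 9.77% at 30 to 39 and 1.16% at 40 or more. At shared sites the etoposide peak held a median of 0.786 times the fragments of its untreated counterpart (median 15 against 19), and it was lower at 72.8% of 15763 sites. Local background went down to 0.377 fragments in the etoposide list and to 0.482 in the untreated list, a ratio of 0.782. At 0.786 times, the median of 12 fragments would be 9.43. The lowest etoposide peak listed had 5 fragments, but listing went by q on the local background, so 5 is not a general limit. The smallest listed width also differed, 189 bp for etoposide-only and 202 bp for untreated-only peaks, so 0.786 and 0.782 were not taken as ratios of depth. How much of the set the lower fragment numbers after etoposide account for was not tested.

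**Figure D3:**
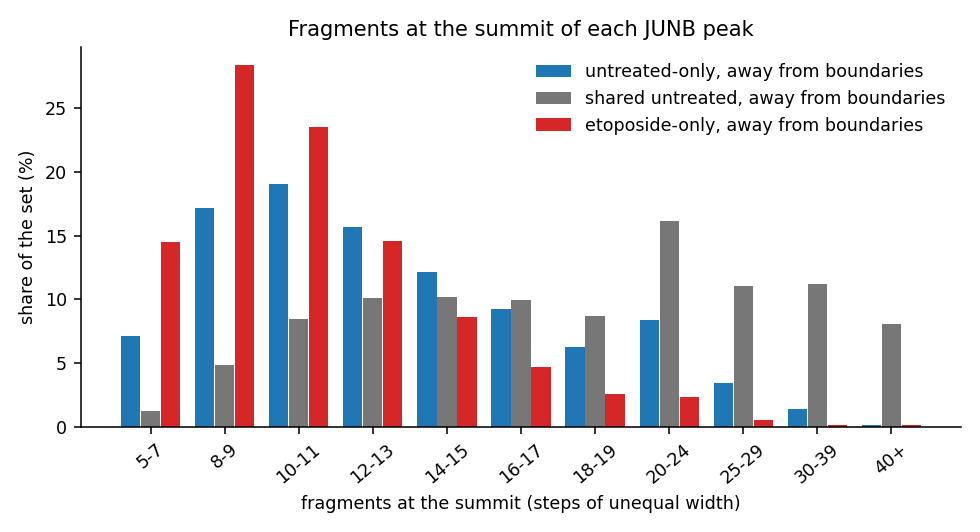
Share of each set in percent (vertical axis) by fragments at the summit (horizontal axis, steps of unequal width), for the untreated-only, shared untreated and etoposide-only peaks away from gene boundaries. Untreated-only peaks lie mostly between 8 and 17 fragments, and the shared set reaches further to the right, with 46.5% of its peaks at 20 or more.

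The strongest members by deposited q were at places of different kinds. The strongest (chr5:83925074-83925389) lay 15.3 kb from EDIL3, which encodes a secreted integrin ligand, and held 48 fragments on a background of 2.26. It ranked 369 in the untreated list, and the nearest etoposide peak was 10.9 kb away. MCC, a regulator of Wnt signalling, held the next (chr5:113081866-113082381, 38 fragments), and DRC3, a gene of motile cilia, the third (chr17:17990539-17991125, 39 fragments). Inside genes there were also peaks in RALGPS1 (31 fragments), an activator of RAL GTPases, in SEMA6D (31), a transmembrane semaphorin, and in RPS6KA2 (27), a ribosomal S6 kinase. Between genes were peaks 35.3 kb from DROSHA (46 fragments), the nuclease of microRNA processing, 83.9 kb from ENC1 (39), 15.7 kb from FAM90A1 (40), 18.4 kb from NEK2 inside the non-coding NTRAS (33), 100.5 kb from LOC124901498 (29), and inside the non-coding LOC105370777, 452 kb from the nearest protein-coding gene (53). Of these 12, 3 stood within 1 kb of an etoposide peak: at 0.095 kb in SEMA6D, 0.099 kb near ENC1 and 0.718 kb near FAM90A1. The peak in LOC105370777 had the most fragments of the whole set and also the highest background of the 12, at 6.20.

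At the 1 kb limit, the nearest members outside it were in EGFLAM at 1002 bp (39 fragments), in SDR42E2 at 1003 bp (12), in THUMPD2 at 1003 bp (13), beside ZFP36L2 at 1004 bp (13) and in TMEM50A at 1009 bp (24). Just inside it were untreated-only peaks beside ST20-MTHFS (10) and HRCT1 (16) at 999 bp, and in SAMD8 (13) and beside CREG2 (13) and PLA1A (8) at 996 bp.

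The untreated-only peaks lay inside protein-coding genes slightly more often than the other sets. The share was 54.7% (53.9% to 55.6%), or 7521 peaks, against 51.6% (50.8% to 52.4%) of shared and 51% (50% to 52.1%) of etoposide-only peaks. At 5 to 9 fragments the shares were 51.4%, 47.1% and 51.4% in the same order. With fragments held at 10 to 14 they were 55.5%, 52.2% and 51.5%, and at 15 to 19 fragments 57.3%, 52.2% and 52.3%. At 20 to 29 fragments the untreated-only and shared shares were 54.1% (51.7% to 56.5%) and 53.5% (52.0% to 55.0%), and their intervals overlapped. The etoposide-only share in that step was 36.8% (31.1% to 42.9%) of 250 peaks. Over 4 parts of the set divided by q the share was 55.1%, 54.4%, 54.7% and 54.8%, from weakest to strongest. The 6217 intergenic peaks stood a median of 49.7 kb from the nearest protein-coding gene, against 60.7 kb for shared and 82.9 kb for etoposide-only peaks. More than 100 kb from any such gene were 15.8% (15.2% to 16.5%) of the set, 18.4% of shared and 22.7% of etoposide-only peaks. Genes for long non-coding RNA held 17.2% of the set, 18% of shared and 16.8% of etoposide-only peaks. In genes of at least 50 kb with known strand, 19.6% of 5455 positions were in the first 20% of the gene and 19% in the last, with the median 49.1% of the way along. Both shares are close to the 20% that an even spread along the gene would give.

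Annotated RNA starts were a small component of the set, and most of them were starts of long non-coding RNAs. Summits in a start window were 1.19% (1.02% to 1.39%) of untreated-only, 0.703% (0.581% to 0.850%) of shared and 0.522% (0.388% to 0.702%) of etoposide-only peaks. For starts of protein-coding genes the shares were 0.546%, 0.228% and 0.243%. Of the 155 windows 71 were at protein-coding genes and 84 at genes of long non-coding RNA. Inner starts with such a peak included those of OXSR1 (26 fragments), a stress-responsive kinase, SHC1 (23), an adaptor of receptor signalling, CREB5 (17), a partner of JUN proteins, and EGFR (17), the receptor for epidermal growth factor. The EGFR window held TGANTCA, as did those of SHC1 and CREB5, and that of OXSR1 did not. These 4 were chosen after their values were seen. Over the hairpins of microRNA genes, with the peak covering some base of the hairpin, there were 13 such peaks among 1911 microRNA genes, 4 of them with the summit inside the microRNA gene. The others had summits up to 255 bp away. Summits inside a microRNA gene were 0.0291% of the set, 1 of 15763 shared peaks and 0 of 8660 etoposide-only peaks. Counts of peaks over hairpins are not given for those sets. Among the 13 were MIR155 (20 fragments), a microRNA long tied to inflammation and AP-1, and MIRLET7A2 (10), both picked after the values were seen.

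Untreated-only peaks often had a neighbour. Another untreated peak of any kind stood within 10 kb of 40.6% (39.8% to 41.5%), with the nearest summit a median of 13.9 kb away. In the shared set 42.3% (41.5% to 43.0%) had one, and among etoposide-only peaks 28.1% (27.2% to 29.1%) had a neighbour in their own list, which is shorter. Over the 4 parts by q, from weakest to strongest, the share in the untreated-only set was 35.6%, 37.7%, 42.5% and 46.7%.

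Of 19974 protein-coding genes, 5170 had such a peak inside or within 10 kb. This was 25.9% of genes, against 25.3% with a shared untreated peak and 18% with an etoposide-only peak counted the same way. Inside the gene itself 3904 genes held at least 1, 285 held 5 or more and 22 held 10 or more. Long genes led by number: GPC6, a cell-surface glypican of 1191 kb, and PALLD, an actin-bundling protein of stress fibres, held 17 each. RAD51B, a paralog in homologous recombination, held 15, and NRG1, a ligand of ERBB receptors, and PRKCE, a protein kinase C, held 14 each. BCAS3 and MAGI2 had 13, and CAST, NCKAP5, PRKCA, PRKG1 and TENM3 had 12. PALLD spans 431 kb, and its 17 peaks had 7 to 31 fragments. PRKCE and NRG1 held 6 shared peaks each, fewer than their 14 untreated-only ones, while CAST, the calpain inhibitor, held 19 shared peaks.

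By density, ranked only among genes holding 5 or more of these peaks, genes of 53.4 to 125 kb led. Such genes are longer than the median protein-coding gene, 24.2 kb. PDLIM1 (chr10:95237572-95291003), a LIM protein of actin stress fibres, had 6 peaks in 53.4 kb, 11.2 per 100 kb, with 23, 7, 14, 10, 10 and 21 fragments. LMCD1 (chr3:8501823-8574668), a LIM-domain regulator of transcription, had 5, with 15, 19, 25, 12 and 14 fragments, and IKBKB (chr8:42271302-42332460), the kinase that releases NF-κB, had 5, with 13, 16, 12, 9 and 9. CCDC85C had 6, ADAM19, a membrane metalloprotease, 5, SPRED2, an inhibitor of the MAP kinase pathway, 6, and UBE3A, a ubiquitin ligase, 5. FOXO3 (chr6:108559825-108684774), a stress-responsive forkhead factor, had 7, with 15, 26, 25, 24, 16, 16 and 9 fragments. No etoposide peak lay inside IKBKB, LMCD1 or CCDC85C. Just beyond LMCD1, which is 72.8 kb long, an etoposide peak with 15 fragments stood at 74.1 kb from its lower boundary, at a shared site. Of all 3904 genes with at least 1 of these peaks inside, 1180 had no etoposide peak inside. Among the 477 genes with 4 or more, 14 had none. The others of the 14 were ATG10, LRCH1, MYCBP2, STX18, AMPH, ARHGAP21, ARHGEF18, ATP10D, IGF2R, PLXDC1 and TENT4B. In the converse count, 3 of 180 genes with 4 or more etoposide-only peaks had no untreated peak inside.

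Runs of untreated-only peaks with no etoposide peak and no other untreated peak between them were mostly short. Of 9821 runs, counted with the untreated-only peaks at gene boundaries, 6082 were of 1 peak, 219 of 5 or more, and the longest of 12. The longest run with none of its peaks at a gene boundary was in TEAD1 (chr11:12674421-12944737), the DNA-binding partner of YAP and TAZ in the Hippo pathway. It held 9 peaks over 170 kb, with 10, 15, 12, 21, 22, 16, 15, 13 and 12 fragments, while the 1 shared peak of the gene, at 19.2 kb from its lower boundary, had 31. Each of the next 4 runs held 8 peaks. ITGA1 (chr5:52787916-52959209), the collagen-binding integrin α1, had 15, 21, 19, 11, 19, 11, 12 and 15 fragments, no shared peak, and 1 etoposide peak with 19 fragments. ZMIZ1, a transcriptional coactivator, had 8 to 21 fragments, and ARID1B, a subunit of the SWI/SNF remodeller, had a median of 21 in its run. Both genes also held shared peaks. The strongest had 41 untreated and 20 etoposide fragments in ZMIZ1, and 55 and 49 in ARID1B. The ARID1B one stood at 332.2 kb from the lower boundary, beside the last peak of the run at 331.8 kb. The run at GLI3, a transcription factor of Hedgehog signalling, covered 332 kb with a median of 11 and reached beyond the gene, which is 303 kb long. Its peaks at 24.1, 137.3 and 276.5 kb from the lower boundary lay inside the gene, and the others lay outside it.

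**Figure D4:**
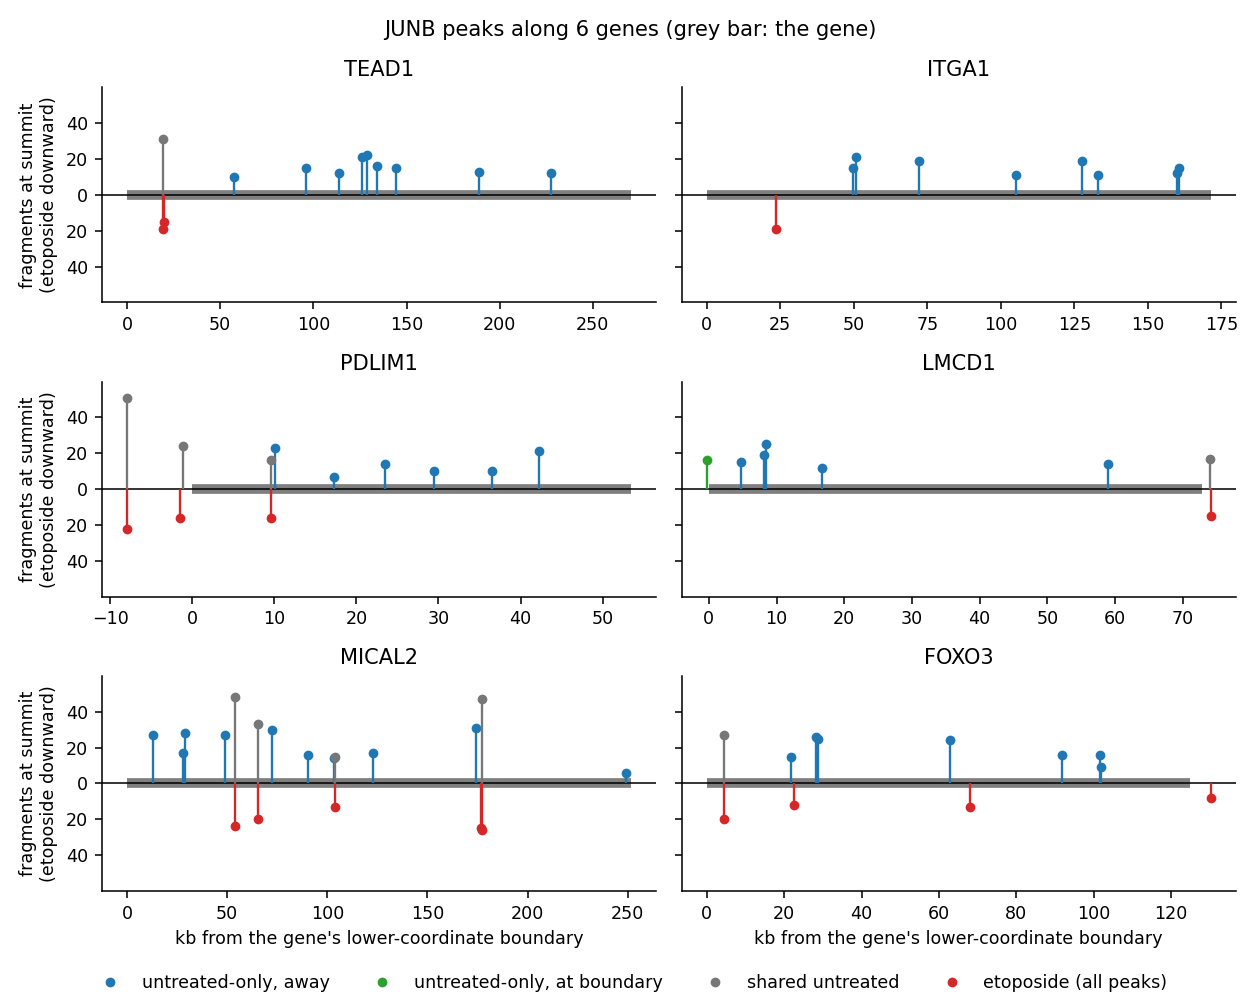
Fragments at each JUNB summit (vertical axis, untreated upward and etoposide downward) by distance in kb from the lower-coordinate boundary of 6 genes (horizontal axis), with untreated-only peaks away from and at boundaries, shared untreated peaks and all etoposide peaks, each point being 1 peak. In TEAD1, 9 untreated-only peaks face no etoposide peak, and the etoposide peaks stand at the site of the shared peak; ITGA1 has 8 against 1.

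Along the chromosomes the set was spread widely, with a few fuller stretches. In 2593 stretches of 1 Mb with an untreated peak the median was 5 of these peaks, and 404 stretches had 10 or more. The fullest was chr11:12000001-13000000, with 30 of its 47 untreated peaks in the set, beside 17 shared untreated peaks and 21 etoposide peaks. There 10 were in MICAL2, an oxidising enzyme that takes actin filaments apart, 9 in TEAD1 and 5 in PARVA, an adaptor of integrins. The MICAL2 peaks had 27, 17, 28, 27, 30, 16, 14, 17, 31 and 6 fragments. In chr8:48000001-49000000 there were 23, none inside a protein-coding gene. Next came chr15:39000001-40000000 with 22, of which 14 were in no protein-coding gene, and chr11:130000001-131000000 and chr2:120000001-121000000 with 21 each. In the last of these GLI2, a further Hedgehog factor, held 7.

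The number of untreated-only peaks per shared peak was 0.865 over the 22 autosomes, from 0.707 on chromosome 18 to 1.08 on chromosome 17. On X it was 1.45 (95% interval 1.2 to 1.74), from 276 untreated-only and 191 shared peaks. Both sets were sparse on X, where untreated-only peaks stood at 1.77 per Mb and at 4.68 per Mb on the autosomes. The etoposide-only peaks of X numbered 151, or 0.547 for each untreated-only peak, within the autosomal range.

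Gene lists of the fibroblast programme were then read against all genes. Matrix, adhesion and actin genes held these peaks at more than 13 per Mb of gene and 10 kb each side, while all protein-coding genes had 5.63, with 5.98 for shared and 3.26 for etoposide-only peaks. Listed genes are long, and a long gene is more likely to hold a peak: of genes of 50 to 100 kb 39.3% had one, and of genes of 100 to 200 kb 55.1%. The density per Mb is for that reason given beside each count, but it does not remove the effect of length. It was 3.53 for genes under 10 kb, 5.28 at 20 to 50 kb, 6.42 at 50 to 100 kb and 3.73 over 500 kb. No length step reached 13 per Mb. The lists were not matched to all genes by length, and no list was tested. A peak in overlapping genes counts for each of them.

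Collagens and matrix glycoproteins had a peak at 27 of 40 genes, or 13.6 per Mb, with 13.9 for shared and 7.37 for etoposide-only peaks. COL4A2, a chain of basement membrane collagen, had 8 (17 to 28 fragments), COL5A2, a chain of a fibrillar collagen, 7 (11 to 30), and FBLN1 and FBN1, which encode fibulin and fibrillin, 5 each. COL4A2 had 1 etoposide-only peak, and COL5A2 had 10. Of the integrin, laminin and focal adhesion genes 28 of 40 had one, again at 13.6 per Mb, with 15.1 for shared and 6.07 for etoposide-only peaks. These were led by LPP with 9, ITGA1 with 8, and LIMS1 and PARVA, both partners of integrin-linked kinase, with 6 each. The 6 at LIMS1 ranged from 8 to 30 fragments.

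Actin, myosin and contractile genes had the highest density of the set, 14.5 per Mb at 25 of 40 genes, and shared peaks were at 10.9 per Mb there. This is 1.33 untreated-only peaks per shared peak, where all genes had 0.941. PALLD had 17, and the cytoskeletal linkers DST and MACF1 and the actin-binding SYNPO2 had 9 each. SYNPO2 had 2 shared peaks, DST 14 and MACF1 7.

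Wnt and Hippo genes had 1.51 untreated-only peaks per shared peak, the highest ratio of the 13 lists, with 13.6 against 9.0 per Mb and 23 of 40 genes. TEAD1 alone gave 9 of the 59 peaks, and its list neighbour WWTR1, which encodes TAZ, had 5, with 10 to 43 fragments. ROR1, a receptor of Wnt ligands, had 5 and AMOTL1, an angiomotin that binds YAP, 4. TGF-β and BMP genes had a peak at 19 of 40 genes, at 10.8 per Mb against 12.7 for shared peaks. LTBP1, which holds latent TGF-β in the matrix, had 8 (7 to 35 fragments). SMAD3, the signal carrier of TGF-β receptors, had 6 (14 to 32) and no etoposide-only peak, TGFBR3 had 5 and BMPR1B 3.

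Of receptor tyrosine kinases and their ligands 20 of 40 had one, at 8.94 per Mb against 10.4 for shared peaks. Ligands led: NRG1 had 14, PDGFC 5 (14 to 37 fragments) and VEGFC 5 (13 to 25, and no etoposide-only peak), while the receptor IGF1R had 4. Fibroblast transcription factors had a peak at 20 of 40 genes and 9.30 per Mb, against 9.94 for shared peaks, with 11 at FOXP1, 9 at KLF12, 7 at FOXO3 and 6 at NFIB. The AP-1 family itself had 8 peaks at 7 of 19 genes, or 6.48 per Mb with 5.67 for shared peaks, and only ATF2 had 2, with 8 and 10 fragments.

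Secreted factors of senescent cells had a peak at 17 of 40 genes, at 12.1 per Mb, with 13.4 for shared and 3.82 for etoposide-only peaks. Inside the genes, which are short, 4 of 40 had one. IGFBP7 had 2, with 20 and 21 fragments, and PLAU, the urokinase plasminogen activator, 2, with 31 fragments at -9.46 kb and 37 at -1.81 kb from its lower boundary. PLAU had no shared and no etoposide peak within 10 kb, and a further untreated-only peak at its boundary had 20 fragments.

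Genes of other cell types differed among themselves, with the blood cell and hepatocyte lists below the 25.9% and 5.63 per Mb of all genes and the epithelial list above both. Neuronal markers had a peak at 9 of 24 genes and 3.81 per Mb (SYT1 3 and GRIA1 2), and blood cell markers at 2 of 24 and 2.76 per Mb (CSF1R 2). Epithelial markers had 9 of 24 and 7.92 per Mb (KRT7 and TP63, 2 each), and hepatocyte markers 1 of 24 and 0.828 per Mb. The peaks named in these lists had 8 to 12 fragments. Peaks say nothing direct of whether a gene was expressed, and no expression was measured in these libraries.

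**Figure D5:**
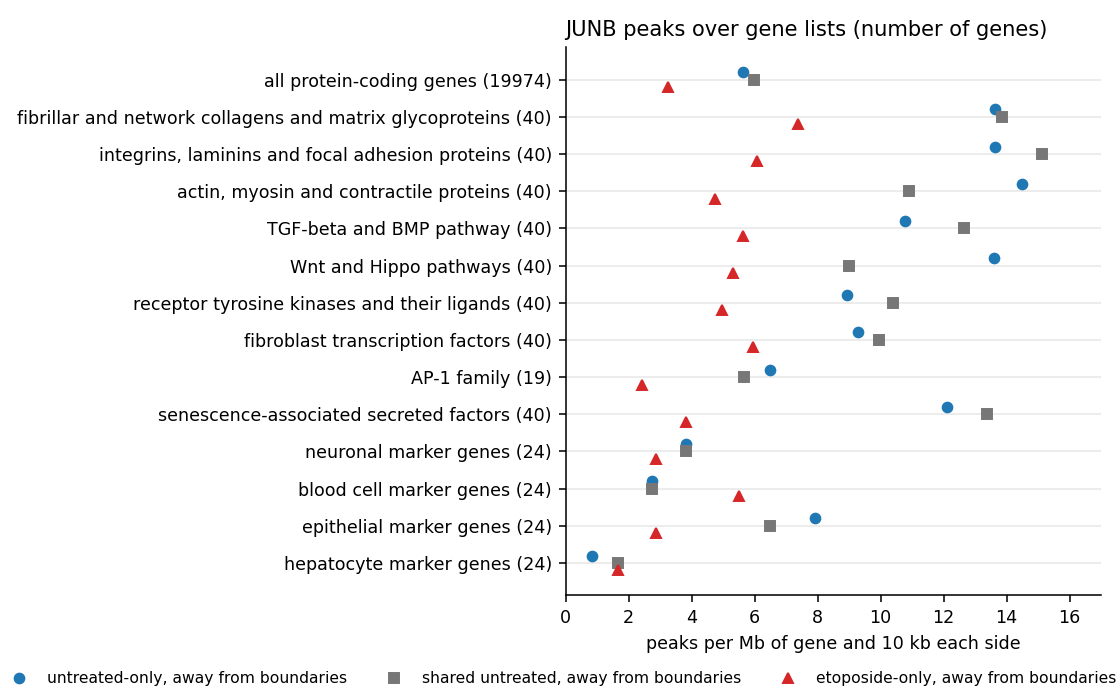
Peaks per Mb of gene and 10 kb each side (horizontal axis) for all protein-coding genes and 13 gene lists (vertical axis, with the number of genes), for untreated-only, shared untreated and etoposide-only peaks away from gene boundaries. Untreated-only peaks exceed shared ones most in the actin list (14.5 against 10.9) and the Wnt and Hippo list (13.6 against 9.0).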

How the data were processed

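JUNB CUT&RUN peaks of 2 IMR-90 libraries, 1 untreated and 1 etoposide-treated, were used as the authors deposited them, one narrowPeak list per library, grouped by the treatment label. Per the submitters' processing notes, Bowtie2 and MACS2 were used, and hg38 and mm10 are named without a role; contig names are those of GRCh38. The deposited values are a score, the fold at the summit as a ratio to local background, and -log10 p and -log10 q; all are the authors' own. Each list reached a q of just under 0.01. No control library was used here.

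Fragments at the summit were solved from the fold, (k + 1)/(b + 1), and a Poisson -log10 p; a whole number k was returned for 100% of peaks within 0.001. This rests on a reading of how MACS2 computes both. The number k may count reads extended to a set length. The smallest listed widths, 202 bp for untreated-only and 189 bp for etoposide-only peaks, differ, and the extension may differ with them. Overlap was 1 bp, and intervals are 95% Wilson intervals. Scripts ran in Python 3.11.15 with numpy 2.4.6, pandas 2.3.3 and scipy 1.17.1, and were tested on simulated data. Genes (19974 protein-coding, 15813 with strand) and start windows came from RefSeq GRCh38.p14; start windows of chromosome 8 were not used.

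The members and the 14 lists were chosen with earlier results of these data known. Of the lists, 1 is not reported here, and 13 are. Named were the 12 strongest members by q, those nearest the 1 kb limit and the etoposide peaks, the 12 genes with most members, the 8 densest among genes with 5 or more, up to 4 genes per list with at least 2, and the 5 fullest stretches of 1 Mb. Genes without an etoposide peak, runs, inner starts and microRNA hairpins were added later. A genome sequence was not used here, so the planned AP-1 shares around every summit were not run. The planned printed stretch, a short window centred on the summit, held an element in 3 windows, and the stretch from summit to element was chosen after that was seen. Alternatives changed the overlap, the boundary distance, the q limit and the gene and neighbour windows.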

Additional observations from a re-analysis of the deposited data

Results flagged for a closer look

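Outside the set stood 452 untreated peaks on contigs that had no counterpart in the etoposide list, of 927 untreated peaks on contigs. On chromosomes 1 to 22 and X the numbers were 15940 of 32550, which is close to the same share. The contig peaks lie outside the chromosomes compared here, and no gene position was set against them.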

How the results depend on the processing

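Of 63 alternatives, 56 left their value within the counting interval of the reported share or median, or within 1.5 times the reported count. The size of the set ran from 11029 (untreated peaks with -log10 q of at least 5) to 19014 (a counterpart only where 50% of both peaks overlapped), and with no etoposide peak within 1 kb it was 11367. With none within 0.25 kb, a limit chosen after seeing the data, it was 11885. The share inside genes stayed between 54.4% and 55.5%. The share with a neighbour within 10 kb was 34.4% with no etoposide peak within 1 kb and 38.1% with -log10 q of at least 5, and it was 24.4% within 5 kb and 67.2% within 25 kb. Within 50 kb, 9294 genes had a peak. Counted inside the gene alone, senescence-associated secreted factors had 4 genes with a peak and epithelial markers 4. Each of these follows from the window or the peaks left in. AP-1 windows of the planned widths around every summit were not run. No paired analysis was possible because each condition had 1 library. A summit of 5 to 12 fragments carries large counting error, and 1 library per condition gives no measure of variation between cultures.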
